A study of Mus musculus with 4 samples.

Results

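Transcripts of 10 glucose, lactate and amino acid transporters were followed in splenic regulatory T cells (Treg cells, a CD4 lineage that depends on the factor Foxp3 and holds immune responses in check). The members were taken by symbol from the deposited count table and are Slc2a1, Slc2a3, Slc16a3, Slc3a2, Slc7a5, Slc7a6, Slc7a1, Slc1a5, Slc38a1 and Slc38a2. All 10 are among the 20837 genes of the table, and all 10 passed the filter on low counts, with between 286 and 21135 reads per library. The study sequenced RNA of 2 libraries labelled cKO, with the genotype Foxp3YFP-CreKmt2dfl/fl, and 2 labelled WT, with the genotype Foxp3YFP-CreKmt2d+/+. Both groups carry a Cre recombinase with a YFP tag driven by Foxp3, and in the cKO mice it acts on loxP-flanked alleles of Kmt2d, which encodes a histone H3 lysine 4 methyltransferase. No age or sex is stated for these mice, and the extraction text contradicts the other labels by describing macrophages grown from marrow of a different knockout, so the groups follow the tissue, cell type and genotype entries. Nothing says that each library had its own animal, so p-values cover only the spread among these 4 libraries, which may be technical.

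Lymphocytes take up glucose by facilitated diffusion through carriers of the SLC2 (GLUT) family and return lactate to the outside through proton-coupled carriers of the SLC16 (MCT) family. Large neutral amino acids such as leucine enter through heterodimers in which a catalytic light chain of the SLC7 family is held at the membrane by the heavy chain CD98, the product of Slc3a2. Glutamine enters through sodium-dependent carriers of the SLC1 and SLC38 families. T cells are known to raise many of these carriers on activation, and amino acids that enter through them are sensed by the kinase complex mTORC1.

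Total counts per library ran from 28442416 to 34225385 in cKO and from 30737750 to 35560491 in WT, so 1 read was worth between 0.0288 and 0.0344 CPM (reads scaled to library size, after TMM scaling). Kmt2d measured 835 and 793 CPM in the cKO libraries, against 721 and 704 CPM in the WT libraries. Reads from exons that remain after the deletion can be part of this count, so it does not check the genotype, and every direction given here is that between the labels. P2rx7, which encodes an ATP-gated channel, measured 95.9 and 91.4 CPM in cKO and 185 and 199 CPM in WT. Foxp3, which defines Treg cells, measured 170 and 180 CPM in cKO and 278 and 250 CPM in WT. Transcripts of 17 pan T cell genes summed to 7000 to 7548 CPM in cKO and 8845 to 9270 CPM in WT, and 12 of the 17 fell. Transcripts of 15 neutrophil genes summed to 782 to 1585 CPM in cKO and 93.5 to 240 CPM in WT, and all 15 rose. Sums over 8 basophil and mast cell genes were 27.5 to 47.7 CPM in cKO and 4.35 to 8.00 CPM in WT, with 7 of 8 higher. The 12 macrophage and monocyte genes summed to 845 to 1024 CPM in cKO and 632 to 864 CPM in WT. Only Lyz2 of the 12 passed the test, with 564 ± 28.3 CPM in cKO and 273 ± 18.1 CPM in WT, while the median log2 fold change of the 12 was -0.36. Of 25 proliferation genes, 24 rose. The 9 CD8 and NK cell genes summed to 235 to 251 CPM in cKO and 132 to 160 CPM in WT, and 8 of 9 rose. The 10 B cell and plasma cell genes summed to 690 to 809 CPM in cKO and 444 to 534 CPM in WT, and 3 of 10 rose. The 8 dendritic cell genes summed to 210 to 219 CPM in cKO and 152 to 154 CPM in WT, and 4 of 8 rose. The test used below called 16.5% of all tested genes higher and 15.1% lower in cKO. No marker gene of these lists was at 0 in any library, and the part of these shifts in the transporter values was not tested. In such bulk samples fewer cells of a type and less RNA per cell cannot be told apart.

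Of the 10 transporter transcripts, 3 fell in cKO libraries (Slc3a2, Slc2a1 and Slc16a3), 1 rose (Slc1a5) and 6 did not pass (edgeR quasi-likelihood test, Benjamini-Hochberg adjusted p under 0.05 over all genes tested). The same test called 31.6% of the 13861 genes tested, 16.5% as higher and 15.1% as lower in cKO. At 4 of 10, the share of transporters called was of the order of that background. DESeq2 called 4 of the 10 and 20.0% of its genes, and edgeR with no filter on low counts 5 of the 10 and 22.4%. With 1 library left out edgeR called 3 members and 15.2% of genes (without cKO 1), 2 and 17.5% (without cKO 2), 2 and 13.3% (without WT 1) and 3 and 19.2% (without WT 2). For 7 of the 10 the cKO and WT libraries did not overlap in CPM, against 66.0% of all tested genes. The changes were small: the median log2 fold change (cKO over WT) of the 10 was -0.02 and the median of its absolute size 0.23, beside 0.19 for all tested genes. Summed over the 10, the libraries overlapped, with 1503 and 1605 CPM in cKO and 1728 and 1595 CPM in WT.

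**Figure D1:**
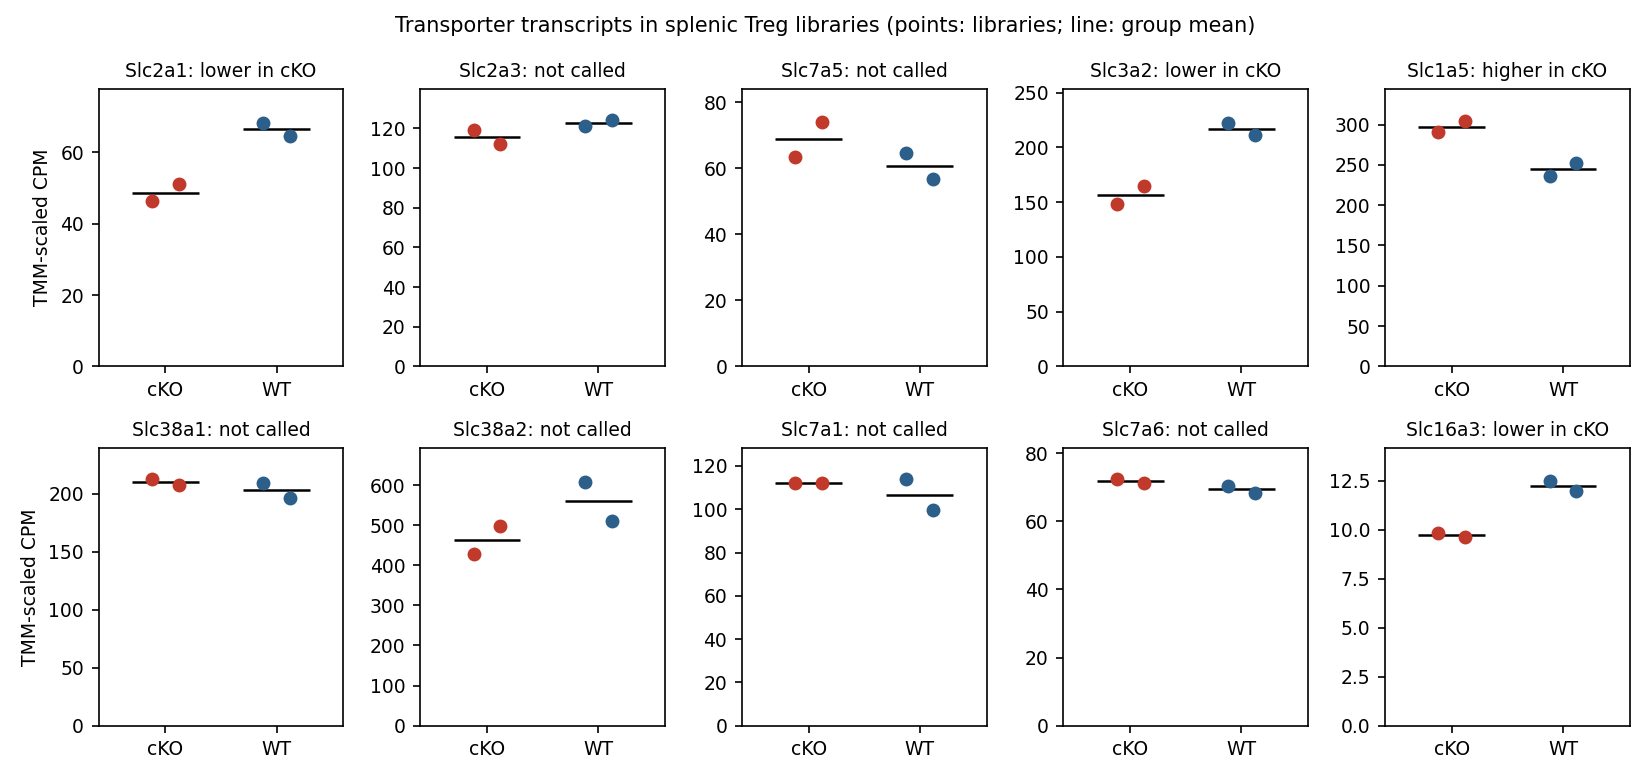
Level of each of the 10 transporter transcripts in TMM-scaled CPM (y axis, from 0) in the cKO libraries (left, red) and the WT libraries (right, blue), with a line at the group mean. The red and blue points are widest apart relative to their own spread for Slc3a2, Slc2a1 and Slc16a3, which were lower in cKO, and for Slc1a5, which was higher.

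Of the 2 glucose carriers, Slc2a1 fell and Slc2a3 did not pass. Slc2a1 (GLUT1, the carrier best known for glucose uptake by activated T cells; gene number 20525, mm10 chromosome 4, 119108745 to 119137330) measured 46.3 and 51.1 CPM in the cKO libraries, against 68.3 and 64.5 CPM in the WT libraries. Both cKO libraries were below both WT libraries, and the gap between the groups exceeded the range within either. The log2 fold change was -0.45 (SE 0.07, 95% interval -0.61 to -0.28, edgeR quasi-likelihood adjusted p = 0.00725), so the transcript fell by 26.7%. The call held in all 12 alternatives run.

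Slc2a3 (GLUT3, a carrier with high affinity for glucose; gene number 20527, chromosome 6, 122727809 to 122802363) measured 119 and 112 CPM in the cKO libraries, against 121 and 124 CPM in the WT libraries. The cKO libraries were the 2 lowest, but cKO 1 lay close to WT 1. The log2 fold change of -0.09 did not pass (SE 0.05, 95% interval -0.22 to 0.05, edgeR adjusted p = 0.286), and this interval does not reach the value of Slc2a1. Summed, the transcripts of both carriers came to 165 and 163 CPM in cKO and 190 and 189 CPM in WT. The annotated span of Slc2a3 overlaps the pseudogene Gm4482, and that of Slc38a1, described below, the noncoding gene Gm32457.

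The lactate carrier Slc16a3 (MCT4, known for lactate export from glycolytic cells; gene number 80879, chromosome 11, 120948484 to 120959000) was the scarcest of the 10. It measured 9.83 and 9.64 CPM in the cKO libraries, against 12.5 and 11.97 CPM in the WT libraries, from 286 and 333 reads in cKO and 434 and 365 reads in WT. The groups did not overlap. Slc16a3 fell by 20.5%, a log2 fold change of -0.33 (SE 0.09, 95% interval -0.55 to -0.11, edgeR quasi-likelihood adjusted p = 0.0398). This call sat near the threshold and ended with DESeq2 (adjusted p = 0.239), with upper-quartile scaling (0.0562) and without any of the 4 libraries (0.0938 to 0.175). Its annotated span overlaps that of the casein kinase gene Csnk1d (chromosome 11, 120957709 to 120991350), which had 6326 to 7813 reads in cKO and 6530 to 7624 reads in WT. Whether counting used strand is not known from the sources used here, and reads of the shared stretch cannot be told apart.

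Among the subunits of the leucine carriers, the heavy chain fell while neither light chain passed. Slc3a2 (CD98 heavy chain, which brings SLC7 light chains to the cell surface; gene number 17254, chromosome 19, 8706882 to 8723369) measured 148 and 165 CPM in the cKO libraries, against 222 and 211 CPM in the WT libraries. Both cKO libraries lay well below both WT libraries. The log2 fold change of -0.47 was the largest in size among the 10 (SE 0.07, 95% interval -0.64 to -0.30, edgeR quasi-likelihood adjusted p = 0.00671), and the call held in all 12 alternatives run.

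Slc7a5 (LAT1, the light chain that carries leucine and other large neutral amino acids; gene number 20539, chromosome 8, 121881146 to 121907686) measured 63.3 and 74.2 CPM in the cKO libraries, against 64.6 and 56.7 CPM in the WT libraries. The groups overlapped in CPM, since cKO 1 lay just below WT 1. Its log2 fold change was 0.18 (SE 0.10, 95% interval -0.06 to 0.43, edgeR adjusted p = 0.230), and it ranged from 0.06 without cKO 2 to 0.28 without cKO 1. Slc7a6 (y+LAT2, a light chain that exchanges cationic for neutral amino acids; gene number 330836, chromosome 8, 106168219 to 106198714) measured 72.6 and 71.3 CPM in the cKO libraries, against 70.5 and 68.5 CPM in the WT libraries. The 4 libraries were close together, and the log2 fold change of 0.05 did not pass (SE 0.05, 95% interval -0.07 to 0.17, edgeR adjusted p = 0.523).

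The promoters of the 3 transcripts that fell, all of which are held in the RefSeq table (GRCm38.p6, the assembly of mm10), are shown because these genes moved the same way. Each runs from 250 bases before to 50 after a RefSeq start site, 5′ to 3′ on the gene's strand. Capitals mark matches, on either strand, to the hypoxia response element cores ACGTG and GCGTG and to the GC box GGGCGG. The E-box CACGTG, which holds ACGTG within it, and the core TGATGNAA of the C/EBP-ATF response element were searched as well and have no match in these windows. The Slc3a2 and Slc16a3 start sites used lie within the annotated spans of those genes, and not at their 5′ ends.
Slc2a1, chr4:119108495-119108794, plus strand: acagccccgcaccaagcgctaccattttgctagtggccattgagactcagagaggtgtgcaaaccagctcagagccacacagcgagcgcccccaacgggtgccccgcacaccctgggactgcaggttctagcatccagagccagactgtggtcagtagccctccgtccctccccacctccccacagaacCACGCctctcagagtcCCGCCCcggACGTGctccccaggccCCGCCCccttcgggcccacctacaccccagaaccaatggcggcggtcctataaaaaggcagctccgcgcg
Slc16a3, chr11:120948817-120949116, plus strand: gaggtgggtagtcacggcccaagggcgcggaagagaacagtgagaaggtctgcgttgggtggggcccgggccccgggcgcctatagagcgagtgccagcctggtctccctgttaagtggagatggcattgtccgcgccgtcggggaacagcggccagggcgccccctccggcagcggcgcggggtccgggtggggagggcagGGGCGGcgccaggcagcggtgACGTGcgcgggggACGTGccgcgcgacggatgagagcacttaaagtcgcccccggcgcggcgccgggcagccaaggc
Slc3a2, chr19:8713848-8714147, minus strand: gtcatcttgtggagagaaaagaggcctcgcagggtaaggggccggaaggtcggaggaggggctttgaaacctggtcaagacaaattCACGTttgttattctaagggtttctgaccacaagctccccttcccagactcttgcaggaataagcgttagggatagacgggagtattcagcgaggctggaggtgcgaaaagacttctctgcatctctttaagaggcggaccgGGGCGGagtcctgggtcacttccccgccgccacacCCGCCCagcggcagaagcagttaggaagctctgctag
The Slc2a1 window holds ACGTG beginning 36 bases before the start site and 2 GC boxes, and the Slc16a3 window holds ACGTG at 27 and 14 bases before it with 1 GC box. In the Slc3a2 window the ACGTG match is on the opposite strand, 164 bases before the start site, with 2 GC boxes. These letters are common: of 32851 promoters in the table, 19.6% hold ACGTG, 32.4% GCGTG and 35.7% GGGCGG, while 7.15% hold CACGTG and 3.97% TGATGNAA. Both ACGTG and GGGCGG are held by 8.90%. This pair was not among the motifs set for the search, so its share is no test of these windows. The shares are not matched for base content. G and C make up 65.3% of the Slc2a1 window, 73.3% of Slc16a3 and 56.0% of Slc3a2, beside a median of 52.7% over the promoters. Promoters were matched for 6 of the 10 members, and Slc7a6, which did not pass the test, also holds ACGTG and GGGCGG. A match describes the letters and not a bound site.

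Among the carriers of glutamine and small neutral amino acids, Slc1a5 rose. Slc1a5 (ASCT2, a sodium-dependent exchanger of glutamine and other neutral amino acids; gene number 20514, chromosome 7, 16781334 to 16798274) measured 290 and 304 CPM in the cKO libraries, against 236 and 252 CPM in the WT libraries. Both cKO libraries lay above both WT libraries. Its log2 fold change was 0.28 (SE 0.06, 95% interval 0.14 to 0.42, edgeR quasi-likelihood adjusted p = 0.0150), a rise of 21.6%. The call ended without cKO 2 (edgeR adjusted p = 0.0759) and without WT 1 (0.0781), with log2 fold changes of 0.25 and 0.24.

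Slc38a2 (SNAT2, a sodium-coupled carrier known to rise when amino acids are short; gene number 67760, chromosome 15, 96687392 to 96699728) had the most reads of the 10. It measured 429 and 497 CPM in the cKO libraries, against 609 and 510 CPM in the WT libraries. The groups did not overlap, but cKO 2 lay just under WT 2 and the libraries of each group were far apart. The log2 fold change of -0.27 did not pass (SE 0.11, 95% interval -0.54 to -0.01, edgeR adjusted p = 0.111), while DESeq2 (adjusted p = 0.0268) and edgeR with no filter on low counts (0.00922) called it. Its size rests on single libraries, at -0.14 without WT 1, -0.17 without cKO 1, -0.39 without cKO 2 and -0.40 without WT 2. Slc38a1 (SNAT1, the close relative of SNAT2; gene number 105727, chromosome 15, 96571418 to 96643438) measured 213 and 208 CPM in the cKO libraries, against 209 and 196 CPM in the WT libraries. The groups overlapped, and the log2 fold change was 0.05 (SE 0.05, 95% interval -0.08 to 0.18, edgeR adjusted p = 0.535).

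Slc7a1 (CAT1, the main carrier of arginine and lysine in many cells; gene number 11987, chromosome 5, 148327410 to 148399904) measured 112 and 112 CPM in the cKO libraries, against 114 and 99.7 CPM in the WT libraries. Both cKO libraries lay between the WT libraries. A log2 fold change of 0.07 did not pass (SE 0.07, 95% interval -0.11 to 0.25, edgeR adjusted p = 0.538) and its sign turned to -0.02 without WT 2.

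**Figure D2:**
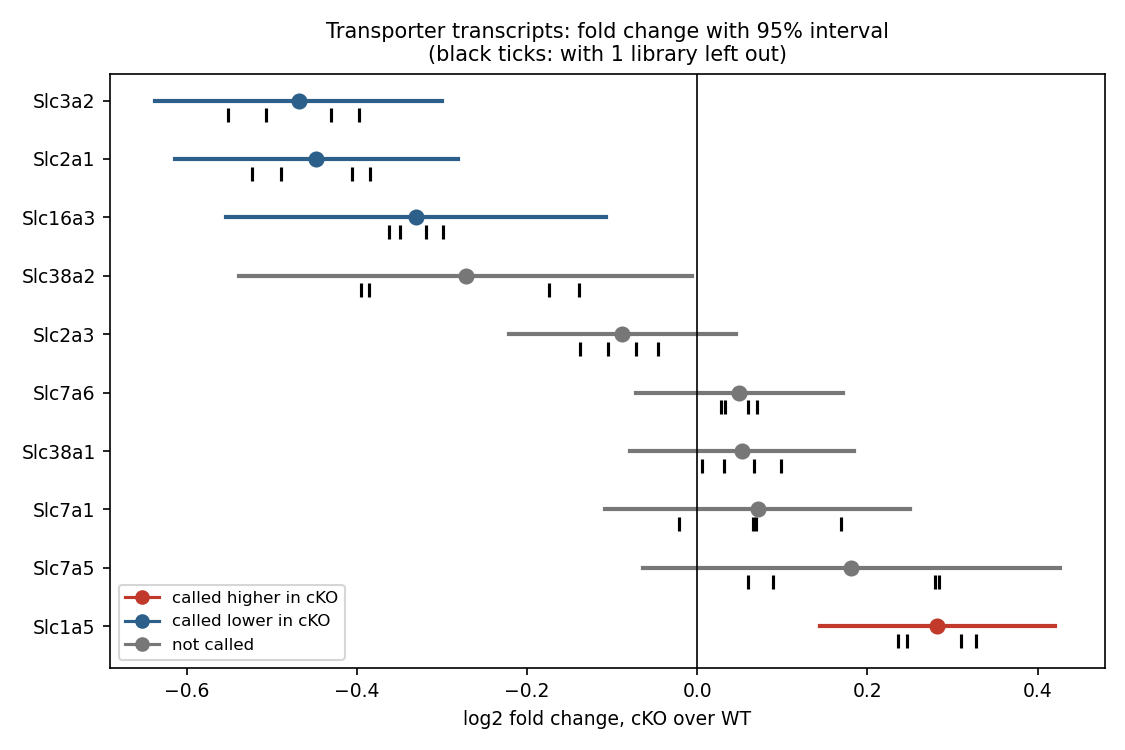
Log2 fold change of cKO over WT (x axis) for each transporter, with a bar for its 95% interval and black ticks for the value with each library left out in turn. Slc3a2 at -0.47, Slc2a1 at -0.45 and Slc16a3 at -0.33 were called lower (blue) and Slc1a5 at 0.28 higher (red), and the ticks of Slc38a2 spread from -0.40 to -0.14.

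Levels of different genes were compared per length, as TPM (length-scaled transcript abundance), computed from the counts and the union of annotated exons. In cKO libraries Slc1a5 led with 269 ± 3.30 TPM, ahead of Slc38a2 with 198 ± 16.7 TPM and Slc3a2 with 167 ± 9.46 TPM (SD, n = 2), and every library of each lay above every library of the next. In WT libraries the same 3 led in another order, Slc38a2 with 238 ± 29.1 TPM, Slc3a2 with 231 ± 7.98 TPM and Slc1a5 with 220 ± 10.6 TPM (SD, n = 2), and neighbours overlapped. Of the glucose carriers, Slc2a1 had 50.6 to 54.2 TPM in cKO and was below Slc2a3, at 57.6 to 63.0 TPM, in every library. In WT, by the union of exons, Slc2a1 had 69.2 to 73.1 TPM and was above Slc2a3, at 62.8 to 64.5 TPM, in every library.

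Among the others, Slc7a6 overlapped Slc2a3 in cKO, and Slc2a3, Slc7a5 and Slc7a6 overlapped from each to the next in WT. Slc7a5 had 65.4 to 74.5 TPM in cKO and 57.5 to 65.3 TPM in WT, Slc7a6 58.1 to 60.8 TPM in cKO and 56.4 to 57.8 TPM in WT. Unlike in CPM, the cKO and WT libraries narrowly did not overlap for Slc7a5 in TPM, and narrowly did for Slc2a3. In both groups Slc38a1 (44.9 to 47.3 TPM in cKO, 42.9 to 45.5 TPM in WT), Slc7a1 (36.3 to 37.2 TPM in cKO, 32.5 to 37.0 TPM in WT) and Slc16a3 (6.75 to 7.08 TPM in cKO, 8.47 to 8.81 TPM in WT) came last, each above the next in every library. From the highest to the lowest member the levels spanned 38.9-fold in cKO and 27.5-fold in WT. The length chosen sets part of this order: with the longest annotated transcript in place of all exons, Slc38a1 averaged 79.8 TPM in cKO and 76.7 TPM in WT, and the other levels moved by less than 1.5 times. By that length Slc2a1 averaged 55.9 TPM and Slc2a3 53.9 TPM in WT, and Slc2a1 was not above Slc2a3 in WT 2. In cKO they averaged 41.1 and 50.9 TPM.

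**Figure D3:**
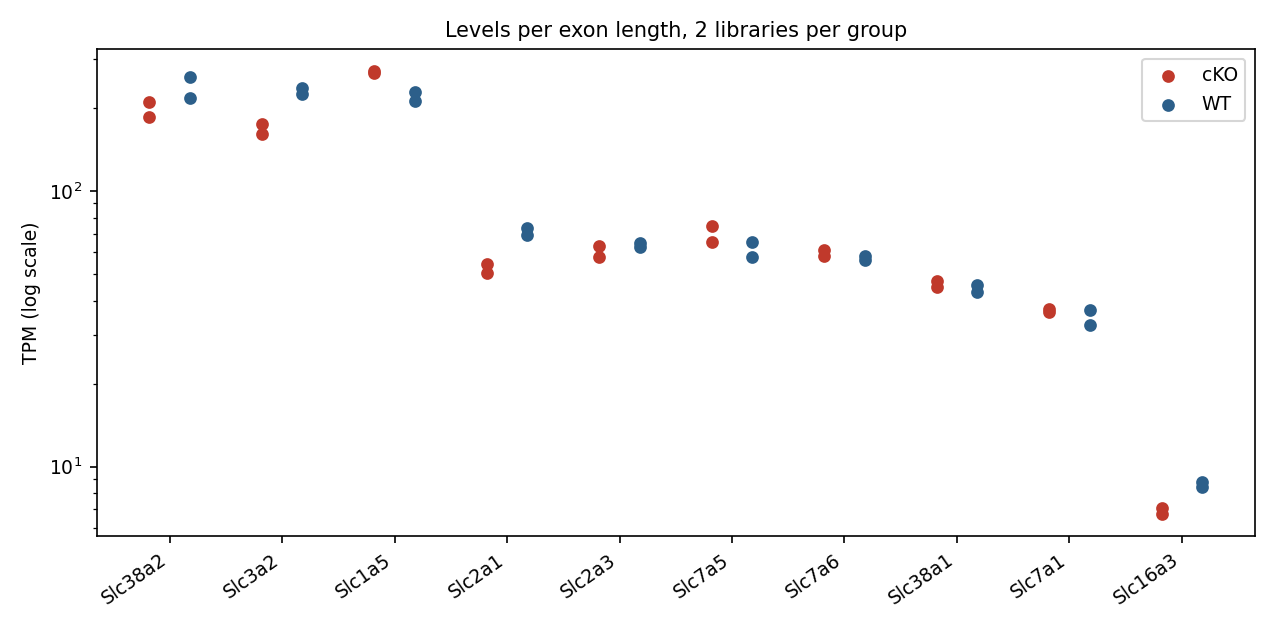
Level per exon length in TPM (y axis, log scale) of each transporter, ordered by the WT mean, with 1 point for each of 2 cKO libraries (red, left) and 2 WT libraries (blue, right). Slc1a5, Slc38a2 and Slc3a2 lie between 161 and 271 TPM, Slc16a3 below 9 TPM, and the red points of Slc2a1 drop under those of Slc2a3.

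Within their families the members held very different shares. Slc1a5 made up 99.3 ± 0.171% of the TPM of 7 SLC1 genes in cKO and 99.0 ± 0.233% in WT (SD, n = 2). Of 10 SLC2 genes, Slc2a1 made up 39.9 ± 1.99% in cKO and 46.0 ± 0.658% in WT, and Slc2a3 45.9 ± 2.91% in cKO and 41.2 ± 1.77% in WT. Slc38a2 held 57.4 ± 3.08% of 11 SLC38 genes in cKO and 61.5 ± 3.43% in WT. By contrast, Slc16a3 held 5.93 ± 0.508% of 12 SLC16 genes in cKO and 7.33 ± 0.674% in WT, where Slc16a1 (MCT1, a carrier of lactate and pyruvate) held 38.4 ± 6.25% in cKO and 39.6 ± 2.16% in WT. The Slc16a1 transcript had a log2 fold change of -0.07 (SE 0.18) and did not pass. All these shares use the union of exons, and those of the SLC38 family depend on that length. With the longest transcript Slc38a1 averaged 79.8 TPM in cKO (46.1 TPM by the union) and Slc38a2 208 TPM (198 TPM by the union).

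Ratios of 2 transcripts within a library do not depend on how libraries are scaled. Slc7a5 reads per Slc3a2 read were 0.428 and 0.449 in the cKO libraries, against 0.291 and 0.269 in the WT libraries, a log2 difference of 0.65. Slc7a6 reads per Slc3a2 read were 0.490 and 0.432 in the cKO libraries, against 0.317 and 0.325 in the WT libraries, a log2 difference of 0.52. Both ratios of light chain to heavy chain were higher in each cKO library than in each WT library. They share Slc3a2 as denominator, which was itself called lower, so they are not separate from that call. Slc2a1 per Slc2a3 was 0.388 and 0.456 in cKO, against 0.563 and 0.519 in WT, a log2 difference of -0.36. Slc38a1 per Slc38a2 was 0.496 and 0.418 in cKO, against 0.344 and 0.385 in WT, a log2 difference of 0.32 that was 0.20 without cKO 1 and ran up to 0.45 without cKO 2. Slc7a1 per Slc7a6 overlapped between the groups, with 1.54 and 1.58 in cKO and 1.61 and 1.46 in WT. With 2 libraries a group the smallest p an exact 2-sided permutation test can give is 0.333, which 4 of the 5 ratios reached (p = 1 for Slc7a1 per Slc7a6), so none of these differences could pass a threshold of 0.05.

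**Figure D4:**
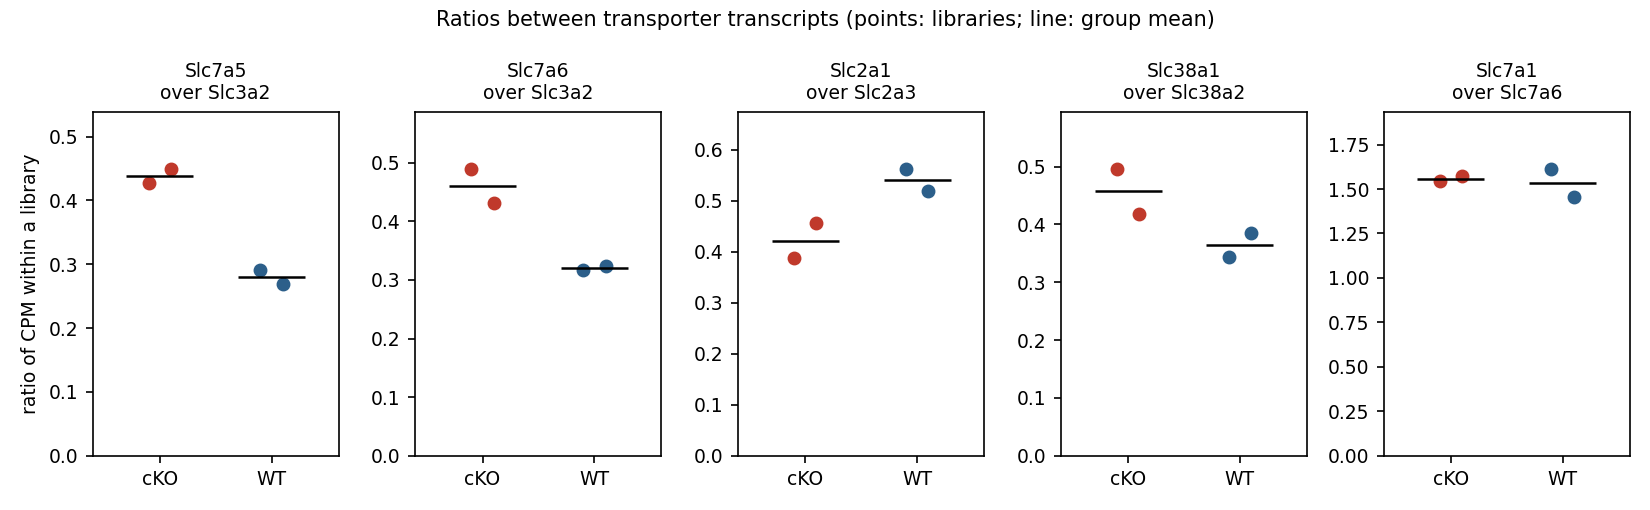
Ratio of a pair of transporter transcripts within each library (y axis, from 0; CPM over CPM) for cKO (left, red) and WT (right, blue), with a line at the group mean. The ratios of Slc7a5 and Slc7a6 to Slc3a2 lie at 0.428 to 0.490 in cKO libraries and 0.269 to 0.325 in WT libraries, and the ratio of Slc7a1 to Slc7a6 overlaps.

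Slc3a2 serves several light chains, and 6 of them were added up per length, a set chosen after values were seen. Slc7a5, Slc7a6, Slc7a7, Slc7a8, Slc7a10 and Slc7a11 together came to 0.898 and 0.874 of the Slc3a2 level in cKO libraries, against 0.610 and 0.594 in WT libraries. Slc7a5 supplied 47.1 ± 2.54% of that sum in cKO and 44.2 ± 1.61% in WT, and Slc7a6 40.1 ± 2.80% in cKO and 41.2 ± 1.48% in WT (SD, n = 2). The cystine light chain Slc7a11 was scarce, at 0.962 and 0.840 CPM in cKO and 0.720 and 0.492 CPM in WT. The light chain sum itself was 144 and 152 TPM in cKO and 144 and 134 TPM in WT.

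Of the other sugar and monocarboxylate carriers and their ancillary proteins the table holds 26, of which 16 were tested. Of these 25% were called, near the background share, as 1 rose, 3 fell and 12 did not pass (median log2 fold change -0.06, beside 0.0003 for all tested genes). Slc45a4, of the SLC45 family of sugar carriers, fell to 28.1 ± 2.31 CPM in cKO, against 53.0 ± 0.0747 CPM in WT (log2 fold change -0.91, SE 0.07, edgeR adjusted p = 0.00297). Emb, which encodes embigin, an ancillary protein of monocarboxylate carriers, fell to 130 ± 12.4 CPM in cKO, against 243 ± 25.3 CPM in WT (log2 fold change -0.90, SE 0.10). Bsg encodes basigin, which MCT4 needs to reach the membrane, and measured 138 and 139 CPM in cKO and 125 and 128 CPM in WT, a log2 fold change of 0.13 that did not pass (SE 0.05, edgeR adjusted p = 0.0972). The intracellular glucose carrier gene Slc2a8 fell by 0.68 on the log2 scale (SE 0.16), a call that ended without cKO 1, WT 1 or WT 2 (edgeR adjusted p = 0.130, 0.113 and 0.0819) and with DESeq2 (0.103).

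Of the other amino acid carriers 36 are in the table and 26 were tested, and 3 rose, 4 fell and 19 did not pass (median log2 fold change 0.02). The share called was 26.9%, beside 31.6% of all tested genes. Few reads carry 3 of these calls, none of which DESeq2 made. Slc1a1 had 11 and 12 reads in cKO and 2 and 3 in WT. Slc6a19 had 7 and 12 in cKO and 27 and 23 in WT, and Slc7a2 13 and 12 in cKO and 26 and 35 in WT. Slc43a1, which encodes LAT3, a carrier of leucine that needs no heavy chain, rose to 9.23 ± 0.361 CPM in cKO, against 4.92 ± 0.691 CPM in WT (log2 fold change 0.91, SE 0.14, edgeR adjusted p = 0.00789). Its relative Slc43a3, known as a nucleobase carrier, rose by 0.59 on the log2 scale (SE 0.09). The taurine carrier gene Slc6a6 fell by 0.24 (SE 0.05) and Slc7a10, the light chain of the small neutral amino acid exchanger Asc-1, by 0.64 (SE 0.14), both on the log2 scale. The Slc6a6 call ended without cKO 1, cKO 2 or WT 1 (edgeR adjusted p = 0.0900, 0.0972 and 0.0962), and the Slc7a10 call without cKO 1, WT 1 or WT 2 (0.116, 0.108 and 0.0609) and with DESeq2 (0.0901).

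Regulators known to act on these carriers went both ways. Of 20 tested genes of the Myc, HIF and MondoA networks, 3 rose, 7 fell and 10 did not pass (median log2 fold change -0.07). This made 50% called, beside 31.6% of all tested genes, and the list itself was not tested. Myc, a transcription factor known to raise carrier transcripts in activated T cells, measured 179 and 170 CPM in cKO, against 102 and 117 CPM in WT (log2 fold change 0.68, SE 0.08, edgeR adjusted p = 0.00509). Txnip, an arrestin-like protein that restrains glucose uptake, measured 980 and 900 CPM in cKO, against 516 and 581 CPM in WT (log2 fold change 0.78, SE 0.08). Hif1a, the oxygen-regulated factor for which Slc2a1 and Slc16a3 are textbook targets, measured 315 and 339 CPM in cKO, against 463 and 433 CPM in WT (log2 fold change -0.45, SE 0.06, edgeR adjusted p = 0.00601). Rora, which encodes a nuclear receptor, had a log2 fold change of -0.95 (SE 0.11) and fell. Among the others that fell, named after their values were seen, were Epas1, which encodes HIF-2 alpha (log2 fold change -1.13, SE 0.17), the prolyl hydroxylase gene Egln3 (-0.93, SE 0.15) and the Myc antagonist gene Mnt (-0.46, SE 0.07).

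In the list of the amino acid response controlled by the factor ATF4, 30 genes were tested, and 10 rose, 3 fell and 17 did not pass (median log2 fold change 0.08). The share called was 43.3%, beside 31.6% of all tested genes, and the list itself was not tested. Atf4 measured 275 and 301 CPM in cKO, against 386 and 376 CPM in WT (log2 fold change -0.40, SE 0.06, edgeR adjusted p = 0.00704), and Ppp1r15a, a phosphatase subunit that ends the response, fell by 0.60 on the log2 scale (SE 0.08). Phgdh and Psat1, enzymes of serine synthesis, rose by 0.43 (SE 0.06) and 0.53 (SE 0.08), and Ddit4, an inhibitor of mTORC1, by 0.69 (SE 0.09), all on the log2 scale. The asparagine synthetase gene Asns, named after its value was seen, rose by 0.85 on the log2 scale (SE 0.17), a call held in 9 of 12 alternatives.

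Of 38 tested genes of mTORC1 and amino acid sensing, 5 rose, 6 fell and 27 did not pass (median log2 fold change -0.02). This made 28.9% called, close to the 31.6% of all tested genes. The folliculin partner gene Fnip2 rose to 10.4 ± 0.862 CPM in cKO, against 3.69 ± 0.772 CPM in WT (log2 fold change 1.503, SE 0.17). Rragd, a Rag GTPase that carries the amino acid signal, fell by 0.94 (SE 0.13), the arginine sensor gene Castor1 by 0.55 (SE 0.09) and the sestrin gene Sesn3 by 0.37 (SE 0.06), all on the log2 scale. Among 24 tested genes of glutamine and branched chain amino acid metabolism 3 rose, 2 fell and 19 did not pass (median log2 fold change 0.02). The share called was 20.8%, beside 31.6% of all tested genes. Odc1, the first enzyme of polyamine synthesis, fell to 286 ± 45.3 CPM in cKO, against 526 ± 41.8 CPM in WT (log2 fold change -0.88, SE 0.12). Cad, which starts pyrimidine synthesis from glutamine, rose by 0.33 (SE 0.05), the CTP synthase gene Ctps by 0.33 (SE 0.07) and the mitochondrial aspartate aminotransferase gene Got2 by 0.29 (SE 0.05), all on the log2 scale. Without WT 1 the calls of Castor1, Ctps and Got2 ended (edgeR adjusted p = 0.0554, 0.0841 and 0.0595), as did that of Got2 without cKO 1 (0.0580) and that of Ctps without cKO 2 (0.0815) and with DESeq2 (0.0542).

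**Figure D5:**
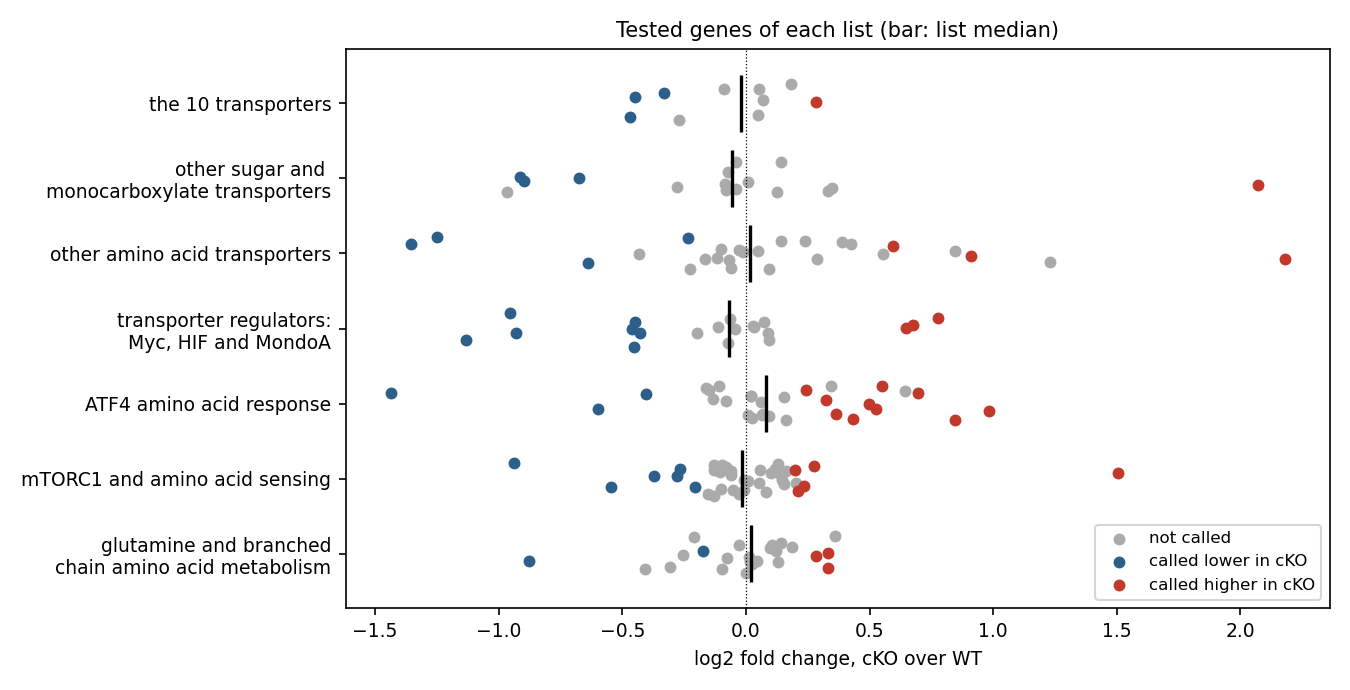
Log2 fold change of cKO over WT (x axis) for the tested genes of each list, with called genes in red (higher) or blue (lower), others in grey and a bar at the list median. The list medians lie between -0.07 and 0.08, with called genes on both sides of 0 in each list.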

How the data were processed

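The authors deposited whole-number read counts per gene for 4 libraries. The build is mm10, according to the submitters' processing notes. No source used here gives the aligner, the counting tool, the annotation release, the kit or the use of strand. The filterByExpr function of edgeR 4.0.16 (R 4.3.3) kept 13861 of 20837 genes, at a minimum count of 10 and a minimum total of 15. After TMM scaling a quasi-likelihood model with group as its single term (glmQLFit, glmQLFTest) gave 2-sided p-values, which were Benjamini-Hochberg adjusted across the tested genes and read at 0.05. CPM and TPM were computed from the deposited counts. Standard errors are the absolute log2 fold change over the square root of F, and 95% intervals use the fit's degrees of freedom. Exon lengths came from GENCODE M21 for 17947 genes, and coordinates and promoters from RefSeq GRCm38.p6.

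The members and the gene lists were chosen with earlier results of these data known, so counts over a list have no test. Named are all 10 members, up to 4 called genes of each list with the smallest p, and Bsg, Emb, Myc, Txnip, Hif1a and Atf4. Kmt2d and P2rx7 were set down as checks of the labels, but the Kmt2d count does not check the genotype. Some genes outside this rule are named as well, among them Foxp3, Lyz2, Slc16a1, Epas1, Egln3, Mnt and Asns. The proliferation and marker lists are given as counts. A gene that this rule also names is not reported here. A marker list for erythroid cells and platelets (1 of 8 tested genes higher) was examined beside those in the text. The alternatives were other scalings (RLE, upper quartile), other tools (DESeq2 1.42.0 and limma-voom of limma 3.58.1), other filters (none, or 5 CPM in at least 2 libraries), counts thinned to the depth of the smallest library, a replicate block, and each library left out in turn.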

Additional observations from a re-analysis of the deposited data

How the results depend on the processing

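Over 12 alternatives for each of the 10 members, 108 of 120 fits kept the direction and the call, 9 lost a call (7 for Slc16a3, 2 for Slc1a5), 2 gained one (Slc38a2 with DESeq2 and with no filter) and 1 turned the sign (Slc7a1, log2 fold change -0.0217 without WT 2 and up to 0.169 with another library left out). For the 32 other genes under the naming rule, Kmt2d and P2rx7 included, 354 of 383 fits kept both, and 29 lost a call. The count of called genes, 4380 of all tested, was 2876 with DESeq2 and 1869 to 2747 with 1 library left out. The 4 called members became 2 to 3 with 1 library left out (2 without cKO 2 or WT 1), and Slc2a1 and Slc3a2 stayed called in each case. With 1 library left out the lone library of a group is assumed to vary like the other group. The numbers 1 and 2 are shared by the groups, but same-numbered libraries did not deviate together (correlation -0.32). For cKO 1 with WT 2 the correlation was 0.32, which with 2 libraries a group is the mirror value. What the crossed libraries might share was not tested. With the replicate block 2292 genes were called, with 2 of the other amino acid transporters, 8 ATF4 response genes, 4 mTORC1 genes and 3 glutamine genes. It ended the calls of Slc16a3 (edgeR adjusted p = 0.152), Slc2a8 (0.0873), Slc6a6 (0.0732), Slc7a10 (0.0858), Ctps (0.0518) and Kmt2d (0.130). Kmt2d had been called higher in cKO (log2 fold change 0.19, edgeR adjusted p = 0.0375), a call that RLE scaling also ended (0.0556). With 1 library left out its log2 fold change ran from 0.15 to 0.23. A crossed replicate block, chosen after seeing the data, called 6713 of the 13861 genes and 6 of the 10 members, adding Slc7a5 and Slc38a2. The filter of 5 CPM called 3494 of the 10066 genes it kept. Of the 7 called among the other amino acid transporters, it left Slc1a1, Slc6a19 and Slc7a2 untested and kept the calls of 4. With DESeq2 the counts were 3 for other amino acid transporters, 6 for mTORC1 and 3 for glutamine genes. With 1 library left out they were 2 to 3 for other amino acid transporters, 8 to 9 for the ATF4 response, 3 to 6 for mTORC1 and 2 to 4 for glutamine genes. The log2 difference in the ratio of Slc7a1 to Slc7a6 (0.02) ran from -0.0495 to 0.10 with 1 library left out. The span of levels per length, 38.9-fold in cKO and 27.5-fold in WT, was 47.1-fold and 32.4-fold with the longest transcript, and 26.8-fold to 29.3-fold in WT with 1 library left out. RLE scaling moved the median of all genes to -0.02 and upper-quartile scaling to 0.03. Thinning to the smallest library kept the 4 member calls, and the scarcest member had at least 286 reads in a library. For the other changes the cause was not tested.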
